A study of Pseudotsuga menziesii with 66 samples.

Results

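The change in needle RNA from early to deep winter was followed in 5 young Douglas-fir trees (Pseudotsuga menziesii), each sampled on 30 Nov 2010 and again on 6 Jan 2011, 37 days later and on the other side of the winter solstice. These 10 libraries, 5 per date and 1 per tree and date, were taken by tree and date from the 66 libraries analysed here, and every comparison pairs a tree with itself. The trees CCTO43, CCTO44, CCTO46, CCTO89 and CCTO90 grew from low-elevation Oregon Siskiyou seed, CCTO44 and CCTO90 from the higher of 2 localities and the other 3 from the lower one. They were planted as 2-year-old trees in November 2009 in a common garden near Central Point, Oregon, and received no treatment that the labels mention. Each sample pooled 8 to 12 needles formed in 2010, picked near 12:00 from branches on the 4 sides of the tree. The 5 libraries of a date are thus separate trees, but they share the weather of 1 day, and date, day length, weather and needle age cannot be told apart. Libraries were pooled by 6 for sequencing, and the pool was not a term in any fit. Its part in the differences between dates was not tested.

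Conifers of this kind keep their needles through winter. Shortening days and then low temperature drive cold hardening, in which protective proteins such as dehydrins and soluble sugars accumulate and membranes are remodelled. Photosynthesis is turned down at the same time, and more of the absorbed light is given off as heat. By the time around the solstice, needles of temperate conifers are usually well into this state. The comparison asks how far the RNA of needles still moves once winter has begun.

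No file used here gives names or sequences for the identifiers, so transcripts are given by identifier, gene lists prepared for hardening and photosynthesis could not be applied, and the needle label could not be checked against markers. In whole-needle RNA, fewer cells of a type and less RNA per cell cannot be told apart. The 10 libraries held between 17942548 and 24869608 counts each (median 20867828). Levels are given in CPM, counts scaled to the same library size. A transcript with a count of 0 could still be present at up to 3 counts, or 0.121 to 0.167 CPM in these libraries, a limit that covers counting error only. No library pair of the same date agreed within sampling noise (lowest chi-square per degree of freedom 26.96 over 20 pairs). The 3 libraries of the series that stand apart, CCTO43 on 26 Oct 2011 and CCTO44 and CCTO46 on 17 Aug 2011, belong to other dates and enter only through the joint fit.

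Between 30 Nov and 6 Jan, 1420 transcripts rose and 955 fell, together 3.9% of the 60931 tested (edgeR quasi-likelihood test, paired by tree, adjusted p under 0.05 after Benjamini and Hochberg). The risers were 2.33% and the fallers 1.57% of all transcripts tested. An unadjusted p under 0.05 was reached by 10005. The median log2 change of all tested transcripts was 0.05, and the median size of their changes was 0.32. The number of calls depended strongly on which libraries and terms entered the fit. A fit of only the 10 libraries called 3138 higher and 2986 lower among 34981 transcripts tested, and a fit without the tree block called 541 higher and 317 lower. The median SD between trees, in transcripts of at least 10 CPM, was 0.25 on the log2 scale on 30 Nov and 0.26 on 6 Jan, against 0.27 to 0.38 on the 4 other dates with 5 trees. This SD also holds lasting differences between trees, which the tree terms take out, so it is not the spread that the test used. Its part in the number of calls was not tested. Leaving out a tree lowered the counts each time, to 821 higher and 541 lower without CCTO43, 823 and 677 without CCTO44, 675 and 432 without CCTO46, 829 and 612 without CCTO89, and 690 and 392 without CCTO90. Without the 3 libraries of other dates that stand apart, 1832 were higher and 1453 lower. With no filter on low counts the numbers were 860 and 507, and with an older edgeR method, chosen after seeing the data, 772 and 636. Every transcript called both here and under an alternative kept its direction.

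The transcripts that fell were abundant compared with the whole set tested, and those that rose lay above it by much less. The median level over the 10 libraries was 10.5 CPM for the fallers, 1.40 CPM for the risers and 0.707 CPM for all tested transcripts. A riser changed by a median of 2.63-fold from a median level of 0.778 CPM on 30 Nov. A faller changed by a median of 1.83-fold from a median level of 13.2 CPM. Among the risers 1052 (74.1%) reached 2-fold, 263 reached 4-fold and 54 reached 8-fold. Among the fallers 395 (41.4%) reached 2-fold, 85 reached 4-fold and 21 reached 8-fold. Changes of at least 2-fold were fitted for 12.5% of all transcripts tested. Scarce transcripts also have the larger counting error, whose part in these sizes was not tested.

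Of the 11372 transcripts with a mean of at least 10 CPM over the 10 libraries, 236 rose (2.08%) and 484 fell (4.26%). Of the 49559 transcripts below that level, 1184 rose (2.39%) and 471 fell (0.950%). The share that rose was thus close on both sides, and the share that fell was larger among the abundant transcripts. In numbers, more fell than rose at 10 CPM or more, and more rose than fell below it, under each of the 14 alternatives. In the fit of the 10 libraries alone, for example, 930 rose and 1889 fell at 10 CPM or more, and 2208 rose and 1097 fell below it. The median log2 change at 10 CPM or more was -0.10, with -0.07 under RLE and -0.11 under upper-quartile scaling. The balance of rises and falls at a given level therefore also depends on the scaling. A count of 0 in all 5 libraries of 30 Nov was found for 11 risers (0.775%), against 2.04% of all tested transcripts. A count of 0 in all 5 libraries of 6 Jan was found for 8 fallers (0.838%), against 1.68% of all.

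Fitted changes also went with level when transcripts were sorted by their mean in the 56 libraries of the other dates. The median log2 change from 30 Nov to 6 Jan was 0.19 for 32202 transcripts under 1 CPM and 0.03 for 16974 transcripts of 1 to 10 CPM. It was -0.08 for 10199 transcripts of 10 to 100 CPM, -0.17 for 1446 of 100 to 1000 CPM and -0.18 for 110 of at least 1000 CPM. The sign of these medians depends on the scaling between libraries. The TMM scaling factor, which lowers CPM where it is larger, was higher on 6 Jan in each tree. It ran from 1.019 to 1.133 on 30 Nov and from 1.109 to 1.192 on 6 Jan. Its part in the medians was not tested, and the shares of counts that follow do not use it. Transcripts under 1 CPM held 1.31% ± 0.128 of all counts on 30 Nov and 1.59% ± 0.127 on 6 Jan (SD, n = 5), and the share was higher on 6 Jan in 5 of 5 trees. Transcripts of 100 to 1000 CPM held 35.3% ± 0.361 and 34.5% ± 0.646, a share that was lower on 6 Jan in 5 of 5 trees. Transcripts of 1 to 10 CPM held 7.68% ± 0.297 and 8.21% ± 0.42, a share that was higher on 6 Jan in 5 of 5 trees. For each of these classes p was 0.0625 in a two-sided exact sign-flip test over the 5 trees, not adjusted over the classes. That is the least this design allows, so 5 trees cannot pass a threshold of 0.05. The share of transcripts of 10 to 100 CPM, 37.6% on both dates, was higher on 6 Jan in 2 of 5 trees (exact sign-flip p = 0.75). Transcripts of at least 1000 CPM held 17.8% ± 0.685 and 17.7% ± 1.09, a share that was higher on 6 Jan in 1 of 5 trees (exact sign-flip p = 0.875).

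**Figure D1:**
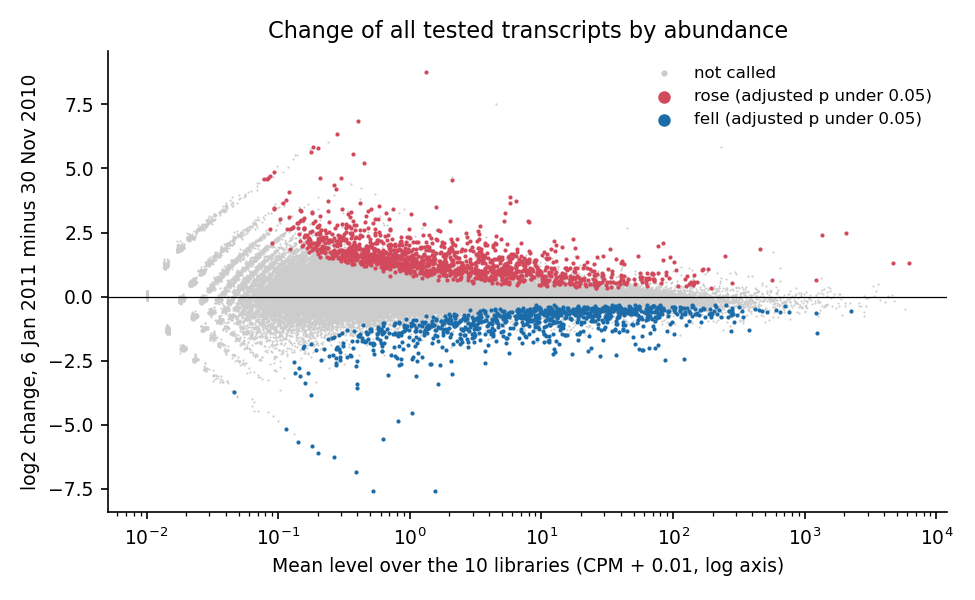
Each point is a transcript, with its mean level over the 10 libraries on a log axis (CPM plus 0.01) and its fitted log2 change from 30 Nov 2010 to 6 Jan 2011; colours mark the 1420 that rose and the 955 that fell. The fallers lie furthest to the right, at a median of 10.5 CPM, against 1.40 CPM for the risers and 0.707 CPM for all tested transcripts.

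Most called transcripts moved the same way in each tree. All 5 trees showed the rise for 1280 risers (90.1%) and the fall for 835 fallers (87.4%), where 11.2% of all tested transcripts were higher and 9.61% lower in all 5 trees. For 642 risers every library of 6 Jan lay above every library of 30 Nov, and for 389 fallers every library of 6 Jan lay below every library of 30 Nov. Among all tested transcripts the dates were apart in this way for 1.98% upward and 1.52% downward. These counts come from the libraries that made the calls and describe them.

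In its share of all counts the rise was carried by very few transcripts, and the fall was spread over many. The risers together held 1.57%, 1.83%, 2.13%, 1.44% and 2.50% of the counts on 30 Nov in CCTO43, CCTO44, CCTO46, CCTO89 and CCTO90. On 6 Jan they held 4.52%, 4.06%, 4.67%, 3.94% and 5.02%. The fallers held 4.95% ± 0.288 on 30 Nov and 3.23% ± 0.200 on 6 Jan (SD, n = 5). The direction of both changes in share follows from the choice of the transcripts in these libraries. Of the gain of 2.55 percentage points of the risers, 3 of 1420 transcripts accounted for at least 50% of it, and psme_t070199, psme_t075233, psme_t027936 and psme_t044194 together for 60.8%. The first 2 of these 4 accounted for 20.9%. The calls of psme_t027936 and psme_t044194 were lost under some alternatives given below, so the gain depends on whether both are counted as risers. The 4 form 2 pairs whose members may share reads. No alternative was run for these shares. Of the loss of 1.72 percentage points of the fallers, 51 transcripts were needed to reach 50%.

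The largest rise among called transcripts of at least 10 CPM that rose in all 5 trees was that of psme_t070199. Its level on 30 Nov was 692, 401, 889, 288 and 1011 CPM in CCTO43, CCTO44, CCTO46, CCTO89 and CCTO90. On 6 Jan it was 4786, 2392, 4300, 2457 and 3267 CPM in the same trees. Every tree was higher on 6 Jan and the 2 dates did not overlap. The log2 change was 2.47 (SE 0.45, adjusted p = 0.000346, edgeR), with adjusted p from 0.000122 to 0.00681 over 14 alternatives. CCTO89, the lowest tree on 30 Nov, had the largest change, and CCTO90, the highest, the smallest. Each change is measured from the level on 30 Nov, so such an order can arise from the spread of single libraries. The transcript stood at 6.07 ± 3.50 CPM on 9 Nov (SD, n = 5) and 3.40 ± 1.64 on 27 Oct, and its log2 change from 9 to 30 Nov, in a contrast that shares the libraries of 30 Nov, was 6.81 (SE 0.56). It was at 2112 ± 889.8 CPM on 7 Feb, 445 ± 165 on 23 Feb (n = 4), 104.9 ± 53.9 on 10 Mar (n = 5) and 0.395 ± 0.32 on 17 Jun (n = 4).

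The second largest rise in the same ranking was that of psme_t075233. It went from 517, 240.5, 582, 192 and 726 CPM to 3335, 1489, 2840, 1527 and 2029 CPM in the same order of trees. The dates again did not overlap, and the log2 change was 2.39 (SE 0.45, adjusted p = 0.000535, edgeR). Over all 66 libraries its log2 level correlated with that of psme_t070199 by r = 0.99. The libraries share trees and dates, so this is a description. Whether both identifiers share reads as near-identical copies is not known, and the separate levels of such a pair are uncertain.

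The largest fall among called transcripts of at least 10 CPM that fell in all 5 trees was that of psme_t022852. It stood at 185, 121, 148, 152 and 120.1 CPM on 30 Nov and at 17.7, 37.4, 38.7, 27.0 and 17.2 CPM on 6 Jan in CCTO43, CCTO44, CCTO46, CCTO89 and CCTO90. All libraries of 6 Jan lay below all of 30 Nov, and the log2 change was -2.46 (SE 0.51, adjusted p = 0.00194, edgeR; 0.000519 to 0.0265 over 14 alternatives). Its level was 354.5 ± 139.8 CPM on 27 Oct and 332.5 ± 115 on 9 Nov (SD, n = 5). After 6 Jan it was 25.4 ± 15.6 CPM on 7 Feb (n = 5), 0.759 ± 0.309 on 28 Jul (n = 4), 14.6 ± 8.18 on 7 Sep (n = 2), 104 ± 41.1 on 7 Oct and 36.5 ± 13.2 on 26 Oct 2011 (n = 3 each). Its level on 26 Oct 2011, from 22.9 to 49.3 CPM, overlapped that of 6 Jan and lay below every library of 27 Oct 2010. Next came psme_t027360, from 239.5, 166, 214, 217 and 180.3 CPM to 26.1, 49.2, 51.8, 41.3 and 20.6 CPM, again with no overlap. Its change on the log2 scale was -2.45 (SE 0.51, adjusted p = 0.00218, edgeR). Its log2 level followed that of psme_t022852 with r = 0.99 over the 66 libraries, and the same uncertainty holds for this pair.

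A further pair, chosen after its values were seen, had the largest gains in share of counts. psme_t027936 went from 2695, 3431, 4262, 2061 and 6234 CPM to 8872, 8065, 8541, 7409 and 10219 CPM in the same order of trees. Its dates did not overlap, and the SD between trees was 1620 CPM on 30 Nov and 1049 CPM on 6 Jan. The log2 change was 1.33 (SE 0.34, adjusted p = 0.016, edgeR). psme_t044194 went from 1992, 2595, 3188, 1549 and 5110 CPM to 6462, 5740, 6598, 5247 and 8130 CPM, also without overlap and with a log2 change of 1.30 (SE 0.34, adjusted p = 0.0198, edgeR). The call of psme_t027936 was lost without CCTO43 (adjusted p = 0.121, edgeR), without CCTO44 (0.118), without the low-count filter (0.0552) and without the tree block (0.18), over a range of 0.00246 to 0.18. That of psme_t044194 was lost without CCTO43 (adjusted p = 0.137, edgeR), CCTO44 (0.125) or CCTO89 (0.0631), without the filter (0.0671) and without the block (0.312), over a range of 0.00232 to 0.312. Both remained higher on 6 Jan in 5 of 5 trees.

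**Figure D2:**
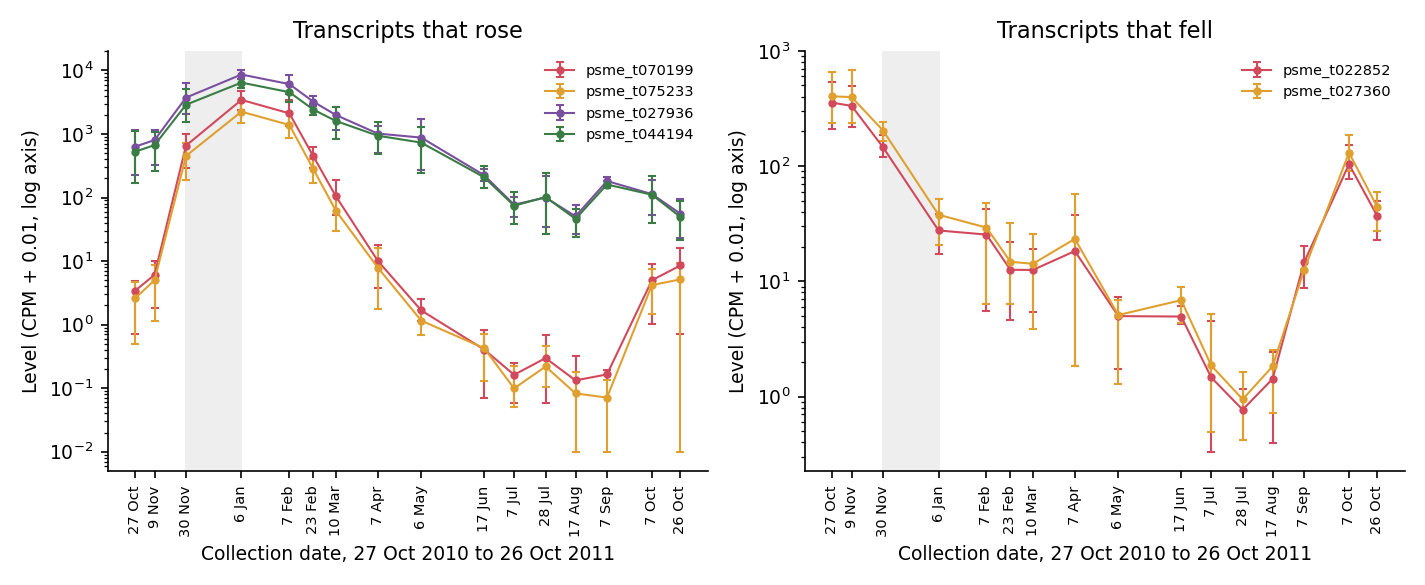
Mean level of the named transcripts on each of the 16 dates (CPM plus 0.01, log axis), with bars from the lowest to the highest tree and the interval from 30 Nov to 6 Jan shaded. psme_t070199 and psme_t075233 climb steeply from 9 Nov and stand highest on 6 Jan, and psme_t022852 and psme_t027360 drop across the shaded interval from a high level in autumn 2010.

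The called transcripts were also followed in contrasts between other dates. The libraries of those dates have no part in the fitted difference between 30 Nov and 6 Jan except through the tree terms, but they share the estimate of the spread, so the calls are not independent of them. From 9 Nov to 7 Feb, the dates on either side, 660 of the 1420 risers were called higher (46.5%) and 25 lower. Of the 955 fallers, 612 were called lower (64.1%) and 4 higher. Among all tested transcripts 7.43% were called higher and 8.27% lower in that contrast (edgeR, 15.7% in all, adjusted over all 60931). The median log2 change was 0.81 for the risers, -0.78 for the fallers and 0.02 for all. The other 735 risers and 339 fallers were called in neither direction between 9 Nov and 7 Feb. Over the alternatives run for this contrast, with the calls made anew in each, 40.3% to 53.4% of the risers were called higher and 52.7% to 67.1% of the fallers lower.

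From 27 Oct to 9 Nov, before the interval, 29 risers (2.04%) and 21 fallers were called higher, against 0.663% of all tested transcripts. Another 13 risers and 12 fallers (1.26%) were called lower, against 0.179% of all. The shares of both sets were small but above those of all transcripts in both directions, and the 513 calls among all tested transcripts (0.842%) varied with the processing.

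After deep winter many risers came down again, and fewer of the fallers came back up. From 7 Feb to 10 Mar, 732 risers (51.5%) were called lower and 130 higher, where 22.4% of all tested transcripts were called lower. Of the fallers 333 (34.9%) were called higher and 160 lower, where 22.6% of all were called higher. The median log2 change was -0.83 for the risers and 0.16 for the fallers. On 7 Feb compared with 17 Jun, 866 risers (61.0%) were called higher and 114 lower, against 26.9% and 23.3% of all tested transcripts. Of the fallers 386 (40.4%) were called lower and 194 (20.3%) higher.

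**Figure D3:**
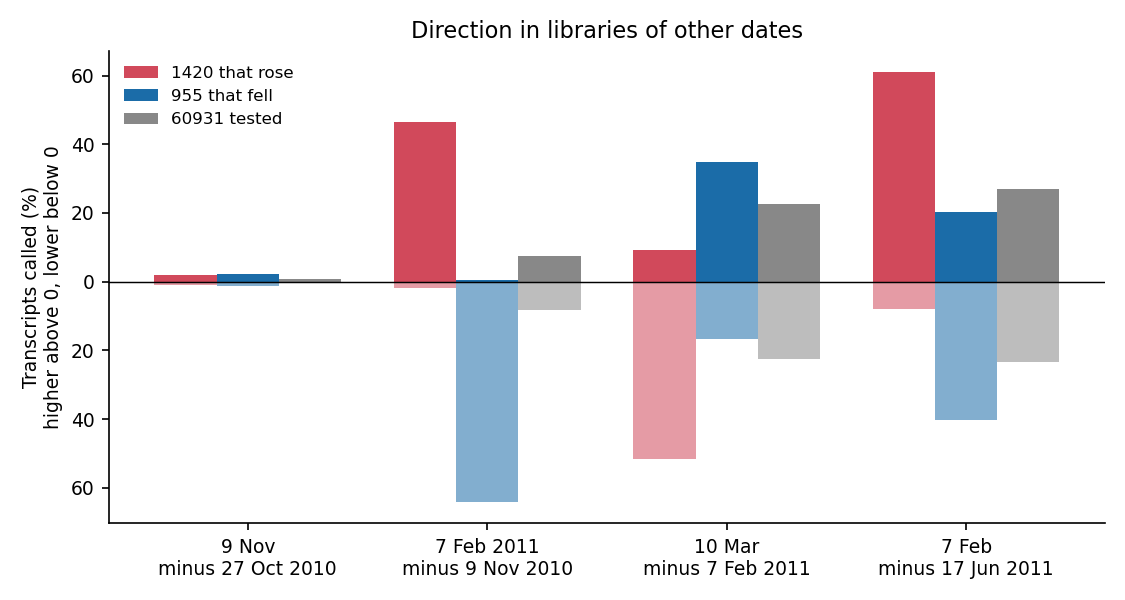
Share of the 1420 risers, the 955 fallers and all 60931 tested transcripts that were called higher (above 0) or lower (below 0) in 4 contrasts that use no library of 30 Nov or 6 Jan. Between 9 Nov and 7 Feb 46.5% of the risers were called higher and 64.1% of the fallers lower, against 7.43% and 8.27% of all transcripts.

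Many risers were highest in late winter, and many fallers in autumn 2010 but fewer in autumn 2011. Over the 14 dates that were not compared, 667 risers (47.0%) had their highest mean level between 7 Feb and 10 Mar, where 22.0% of all tested transcripts had it. The lowest mean level of 730 risers (51.4%) lay between 7 Apr and 17 Aug, where 40.7% of all had it. A group of 271 risers (19.1%) was highest on 7 Apr, against 9.15% of all. Of the fallers, 441 (46.2%) had their highest mean on 27 Oct or 9 Nov 2010, against 17.1% of all, and 374 (39.2%) their lowest between 7 Feb and 10 Mar, against 17.0%. Between 7 Sep and 26 Oct 2011, 160 fallers (16.7%) had their highest mean, against 23.3% of all. The highest date of 132 fallers (13.8%) was 6 May, against 9.43% of all. Both sets therefore mixed transcripts with different courses over the year. Each mean was over the trees sampled on a date, 5 on 27 Oct and 9 Nov 2010, 7 Feb and 10 Mar. There were 4 on 23 Feb and from 7 Apr to 17 Aug, 2 on 7 Sep and 3 on 7 and 26 Oct 2011. The trees sampled thus differed between dates, and the part of this in the highest and lowest dates was not tested.

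The share of all counts, which abundant transcripts dominate, followed the median profiles only in part. The risers held 1.22% ± 0.0861 of the counts on 27 Oct 2010, 3.80% ± 0.188 on 7 Feb, 1.54% ± 0.0674 on 10 Mar (SD, n = 5 each) and 1.05% ± 0.0815 on 17 Jun (n = 4). The fallers held 5.19% ± 0.312 on 27 Oct, 2.72% ± 0.105 on 7 Feb, 3.10% ± 0.254 on 10 Mar and 5.34% ± 1.38 on 17 Jun. In midsummer the fallers' share was thus near that of 27 Oct, while their median log2 level relative to the year was -0.10 on 17 Jun and 0.53 on 27 Oct. The risers' share on 7 Apr was 1.54% ± 0.148 (n = 4), as on 10 Mar, while their median log2 level was 0.34 and -0.07. The share of the fallers on 7 Feb was thus below that of autumn 2010 and midsummer, and the share of the risers was above both.

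**Figure D4:**
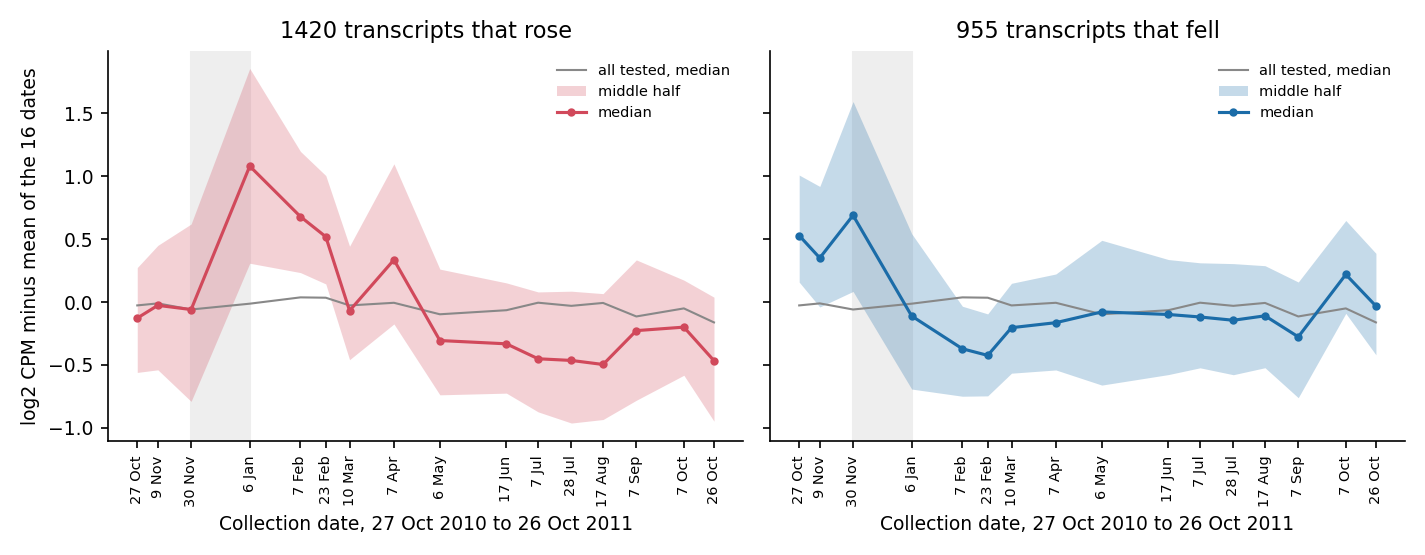
Log2 CPM of each riser (left) and faller (right) relative to its mean over the 16 dates, as the median and the middle 50% of transcripts, with the median of all tested transcripts as a grey line and the interval compared shaded. The risers' median is 1.08 on 6 Jan, 0.68 on 7 Feb, -0.07 on 10 Mar and 0.34 on 7 Apr, and the fallers' median goes from 0.69 on 30 Nov to -0.42 on 23 Feb; values on the 2 dates compared follow from the choice of the transcripts.

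The interval across the solstice showed a smaller change per tree than the interval before it or after it. Over 11755 transcripts with at least 10 CPM in the other libraries, the root mean square log2 change of a tree from 30 Nov to 6 Jan was 0.42 in CCTO43, 0.41 in CCTO44, 0.43 in CCTO46, 0.52 in CCTO89 and 0.61 in CCTO90. From 9 to 30 Nov, over 21 days, it was 0.66 ± 0.03, and from 6 Jan to 7 Feb, over 32 days, 0.63 ± 0.05 (SD, n = 5). The change across the solstice was the smaller in 5 of 5 trees in both comparisons, although its 37 days were the longest (two-sided exact sign-flip p = 0.0625 each, adjusted 0.0625 over both, the smallest that 5 trees can give). The neighbouring intervals share libraries with it. By the same edgeR test 9173 transcripts (15.1%) were called from 9 to 30 Nov and 12321 (20.2%) from 6 Jan to 7 Feb, against 2375 here. This comparison of intervals, like the sorting by level in other libraries, was chosen after the data were seen.

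All 3 measures of the whole library were higher on 6 Jan in each tree. At an equal depth of 17942548 counts, 87180 ± 2627 transcripts were detected on 30 Nov and 93135 ± 2398 on 6 Jan (SD, n = 5), a difference of 5955 ± 2527 within trees. The 20 most abundant transcripts held 8.37% ± 0.491 and 9.34% ± 0.888 of all counts, a difference of 0.966 ± 0.594 percentage points. On an axis that runs from 0 at the mean of 17 Jun to 1 at the mean of 7 Feb, the libraries stood at 1.05 ± 0.0338 and 1.13 ± 0.0544, a difference of 0.0784 ± 0.0676. Each difference was positive in 5 of 5 trees, with p = 0.0625 by the exact sign-flip test, its lower limit here, adjusted 0.0625 over the 3 measures. The 4 named risers alone gained 1.55 percentage points, more than the 20 most abundant together, and the transcripts of at least 1000 CPM in the other libraries held 17.8% and 17.7%. With the 100 most abundant transcripts the difference in share was 0.642 percentage points (exact sign-flip p = 0.3125). Along the axis the mean of 6 Jan was the highest of the 16 dates, ahead of 30 Nov at 1.05 and 7 Feb at 1, which the axis fixes.

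**Figure D5:**
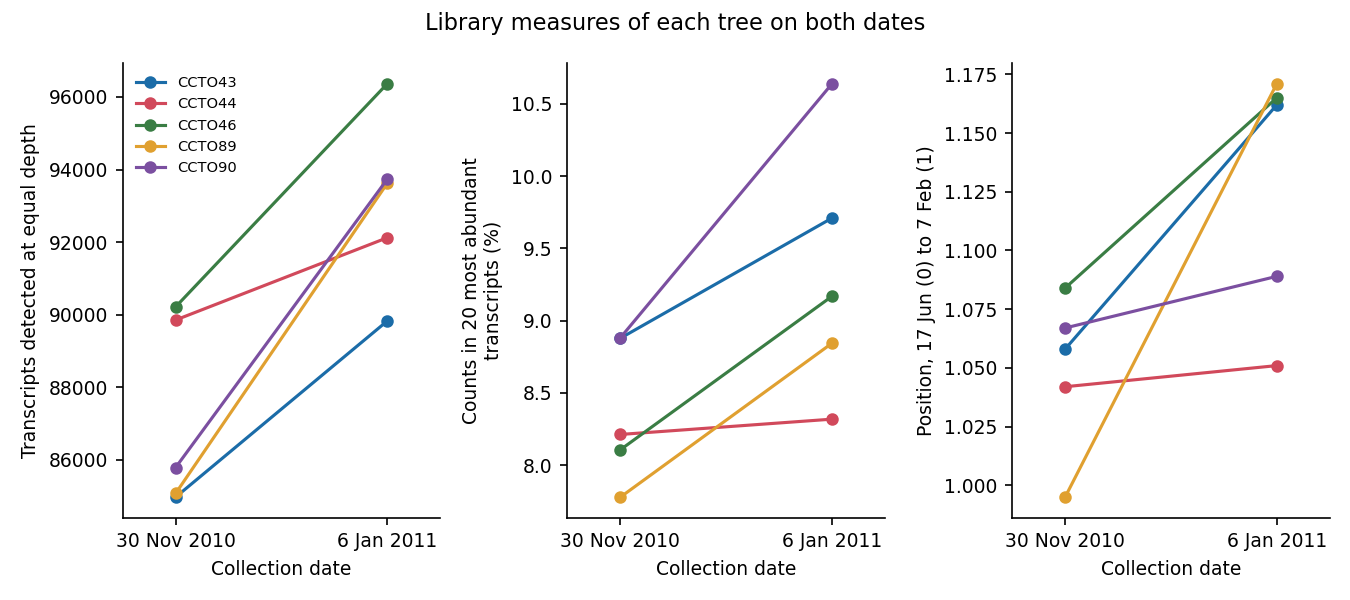
Transcripts detected at equal depth, percent of counts in the 20 most abundant transcripts and position on the axis from June (0) to February (1), with 1 line per tree from 30 Nov 2010 to 6 Jan 2011. Every line goes up, and for detected transcripts the mean goes from 87180 to 93135.

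The changes of single trees varied in size and in content. Among 11372 transcripts of at least 10 CPM, CCTO90 had 227 at least 2-fold higher and 590 at least 2-fold lower on 6 Jan. CCTO43 had 96 higher and 234 lower, CCTO46 138 and 199, and CCTO89 220 and 274. CCTO44 was the only tree with more of them higher than lower, 224 against 120. Over these transcripts the changes of a pair of trees correlated by r = 0.23 (CCTO89 and CCTO90) to 0.78 (CCTO43 and CCTO46), with a median of 0.51 over 10 pairs. These correlations are across transcripts, which are not independent. With 1 library per tree and date, a tree's own change cannot be told apart from the spread between libraries.

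The change did not differ detectably between the seed localities. No transcript passed the test of that difference, CCTO44 and CCTO90 against the other 3 trees (edgeR interaction contrast, adjusted p under 0.05, 0.0% called, smallest adjusted p = 0.380). An unadjusted p under 0.05 was reached by 1796 of the 60931 transcripts tested, among them 65 of the 1420 risers and 66 of the 955 fallers. The 11 alternatives run for this contrast, all in edgeR, called 0 to 2. DESeq2, the authors' size factors and the fit without the 3 libraries that stand apart were not run for it. The median standard error of the difference was 0.32 on the log2 scale in transcripts of at least 10 CPM and 0.67 in the risers. The difference, higher minus lower locality, was -0.67 for psme_t070199 (SE 0.74, adjusted p = 1, edgeR) and 0.59 for psme_t022852 (SE 0.97). With errors of this size, 2 and 3 trees do not show that the localities changed alike.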

How the data were processed

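Per the labels' protocols, poly(A) RNA of needles was made into strand-specific libraries (second strand marked with dUTP) and pooled by 6 for sequencing. CASAVA 1.8, Bowtie2 2.2.3 and DESeq appear in the submitters' processing notes. The sources used here do not give the transcript reference or the counting tool, and how near-identical transcripts divided their reads is unknown. The authors deposited whole-number counts of 199471 transcripts in 66 libraries, which served all tests as deposited. For 36145 transcripts the authors also deposited a normalized signal, which is the counts divided by 1 factor per library; these factors served as an alternative. The interpolated table was not used.

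Columns were matched to libraries by tree and date. edgeR 4.0.16 (R 4.3.3) kept 60931 transcripts (filterByExpr by date, minimum count 10), which hold 99.47% to 99.68% of the counts of each of the 10 libraries. TMM scaling and robust quasi-likelihood F tests on all 66 libraries, with date and tree as terms, were followed by Benjamini-Hochberg adjustment over all transcripts. CPM are counts scaled by library size and TMM factor, and log2 levels used a prior count of 2. The same-numbered samples are the same tree, and the pairing shows in the values: deviations from the date means correlated by 0.688 to 0.919 within trees, and by at most 0.186 between trees. Single values per library were compared with exact sign-flip tests over 5 trees. Tests were tried on simulated counts with a common spread for all transcripts and no differences between trees, unlike the data. The test of 6 Jan against 30 Nov recovered 32 of 79 changes of 2-fold and 70 of 79 of 4-fold. It made 6 false calls. The locality test recovered 1 of 78 changes of 2-fold and 12 of 80 of 4-fold, with 0 false calls. Alternatives were RLE, upper-quartile and the authors' factors, no filter, DESeq2 1.42.0, the 10 libraries alone, no tree block, each tree left out, and 3 libraries left out.

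Named transcripts are the 2 with the largest log2 change in each direction among those with a mean of at least 10 CPM over the 10 libraries, an adjusted p under 0.05 and the same direction in all 5 trees. The comparison, lists and tests were chosen with earlier results of these data known, and psme_t070199 and psme_t075233 were already known as winter transcripts.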

Additional observations from a re-analysis of the deposited data

How the results depend on the processing

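The calls (1420 higher, 955 lower) stayed within 1.5 times under RLE, upper-quartile and the authors' scaling and under DESeq2. They were 860 and 507 without a filter, 3138 and 2986 in the 10 libraries alone with the replicate block, 541 and 317 with no replicate block, and 772 and 636 with the older edgeR method and a trended dispersion, which was chosen after seeing the data. Without the 3 libraries that stand apart 1453 were lower. With each tree left out, 675 to 829 were higher and 392 to 677 lower; fewer samples then enter the fit. The cause of the other shifts was not tested. The 513 calls from 27 Oct to 9 Nov became 278 without a filter, 112 with the older method and 83 to 249 without a tree. The locality difference gave 2 calls without a filter and 0 to 1 without a tree; leaving out CCTO44 or CCTO90 leaves 1 tree in that arm, assumed to vary like the others. The tree pairing changed the calls of psme_t027936 and psme_t044194 among the named transcripts and of no other. The total calls in the other 3 contrasts stayed within 1.5 times. Small shares within them did not: risers called higher from 7 Feb to 10 Mar were 5.81% to 12.2%, and risers called lower on 7 Feb than on 17 Jun 5.70% to 12.1%. The library measures kept their direction; transcripts detected differed by 3428 at a minimum of 5 counts and by 5955 at 1. No result was reversed. Depth limits transcripts under about 1 CPM most.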
